A study of Homo sapiens with 8 samples.

Results

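The CDK inhibitors and D cyclins are 10 of the 23391 genes with read counts in these libraries. They were taken by gene symbol, from a list made with earlier results of these data known. They are the Cip/Kip inhibitors CDKN1A (p21), CDKN1B (p27) and CDKN1C (p57), the INK4 inhibitors CDKN2A, CDKN2B, CDKN2C and CDKN2D, and the D-type cyclins CCND1, CCND2 and CCND3. RNA-Seq was performed on DU145, a human prostate cancer cell line, in pools of cells stably transfected with the empty vector pcDNA3.1-zeo (DU145-pc3.1) or with the same vector carrying Esrrb (DU145-Esrrb). Each pool was either untreated or treated with 3 μM DY131, a synthetic ligand of the orphan nuclear receptors Esrrb and Esrrg, in medium with charcoal-stripped serum. The length of the treatment is not given in the labels. The 4 groups held 2 biological replicates each, 8 libraries in all. Per the study's methods, transfected cells were pooled for each vector after selection, and all groups come from 1 cell line. An effect of Esrrb and any other difference between the selected pools therefore cannot be told apart.

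CDKs 4 and 6 pair with a D cyclin and phosphorylate the RB protein, which releases E2F factors and lets cells enter S phase. The INK4 proteins bind CDK4 and CDK6 and keep D cyclins off them, while the Cip/Kip proteins bind cyclin-CDK complexes of several kinds and block CDK2 in particular. DU145 cells carry mutated RB1.

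The libraries held between 7858743 and 11551690 gene counts, and the 2 smallest belonged to DY131-treated DU145-Esrrb cells. ESRRB itself was looked at first. It had 104 and 99 reads in untreated and 105 and 143 reads in DY131-treated DU145-Esrrb libraries, against 0 to 3 reads in the 4 DU145-pc3.1 libraries. Every library thus went with the vector in its label, while ESRRB reads cannot check the DY131 label. The epithelial keratins KRT8 and KRT18 were at 776 cpm or more in all libraries (cpm, the count of a gene relative to its library's total, with totals scaled by edgeR's TMM method). On this scale ESRRB was at 8.83 to 9.10 cpm in untreated and higher, at 13.7 to 16.2 cpm, in DY131-treated DU145-Esrrb cells. The reason for this difference was not tested. KLK3, a gene of luminal prostate cells, had 0 reads in every library. With DY131 in DU145-Esrrb cells KRT8 rose by 0.38, and CDH1 fell by 0.70 and EPCAM by 0.28 on the log2 scale (edgeR). EPCAM was at -0.13 with a correction for exon junctions, -0.14 with one for transcript length and -0.21 without untreated DU145-Esrrb replicate 2, none past the threshold. With DY131 in DU145-pc3.1 cells KRT8 rose by 0.24 ± 0.09 and EPCAM was at 0.17 ± 0.07. CDH1 was at 157 to 165 cpm in untreated and 78.9 to 113 cpm in treated DU145-pc3.1 cells. In DU145-Esrrb cells CDH1 was at 107 to 114 cpm untreated and 62.3 to 73.2 cpm treated. The summed levels of the fibroblast, endothelial and leukocyte marker lists were 2.94 to 5.98, 0.391 to 1.29 and 1.43 to 4.41 cpm, with LYZ, at 2 to 16 reads, lower in DY131-treated DU145-Esrrb cells (-2.18). The treated DU145-pc3.1 replicates differed from each other more than those of any other group. Their counts gave a chi-square of 7.51 per degree of freedom over the genes, against 1.31 to 2.70 in the other groups, and results that rest on 1 of them are given without it as well.

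Of the 10 genes, 9 passed the filter of at least 1 cpm in at least 2 libraries that left 13856 genes for testing. CCND2 did not. It had 1 read in 1 library of each group but DY131-treated DU145-Esrrb cells and 0 in the other 5 libraries, under the floor of 3 counts, or 0.260 to 0.382 cpm, below which a level was not detectable at this depth. In bulk RNA, a change in the share of cells that express a gene and a change in the RNA per cell cannot be told apart.

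The RefSeq start windows (GRCh38.p14) of 250 bases upstream covered 7 of the 10 genes with 12 windows, and there was no entry for CDKN1C, CCND1 and CCND2. The core half-site of estrogen-related receptors, AAGGTCA or its complement TGACCTT, was in 0 of the 12 windows, and 3.44% of all 35116 windows of this length held it. The paper cites an earlier report that Esrrb binds the CDKN1A promoter directly. With so rare a motif and windows of 250 bases, 0 matches do not show that a promoter lacks such a site. The GC box GGGCGG or its complement CCGCCC, the motif read by Sp factors, was in 9 of the 12 windows and in 42.6% of all windows. The CDKN1A window held 4 GC boxes. The window's first 194 bases, chr6:36678464-36678657 on the plus strand, lie just before the first exon of some CDKN1A transcripts and inside an intron of those that start further upstream (GENCODE 29), and are shown because CDKN1A is the gene the comparisons turn on, with 2 of the GC boxes in capitals. The remaining 2 boxes lie in the part of the window that GENCODE 29 counts as a 5' untranslated exon. These matches describe letters in a window and not binding.
CDKN1A upstream: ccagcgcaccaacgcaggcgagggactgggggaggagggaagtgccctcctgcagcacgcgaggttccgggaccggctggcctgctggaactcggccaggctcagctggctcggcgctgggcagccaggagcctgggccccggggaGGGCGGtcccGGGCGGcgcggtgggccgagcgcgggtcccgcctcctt

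Against untreated DU145-pc3.1 cells, CDKN1A differed more in DY131-treated DU145-Esrrb cells than in untreated DU145-Esrrb or DY131-treated DU145-pc3.1 cells. The level of CDKN1A was 63.7 and 63.3 cpm in untreated DU145-pc3.1 cells, 56.1 and 51.2 cpm in untreated DU145-Esrrb cells, 87.5 and 70.8 cpm in DY131-treated DU145-pc3.1 cells, and 113 and 117 cpm in DY131-treated DU145-Esrrb cells. No group overlapped another. Both libraries of DY131-treated DU145-Esrrb cells stood above all 6 others, and the untreated DU145-Esrrb libraries stood lowest. CDKN1A lies at chromosome 6, 36676460 to 36687339 (GRCh38, plus strand, GENCODE 29), and the non-coding gene DINOL overlaps it on the opposite strand.

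With DY131, CDKN1A rose by 1.10 ± 0.09 on the log2 scale (SE), or 2.14-fold, in DU145-Esrrb cells (edgeR quasi-likelihood test with Benjamini-Hochberg adjustment, adjusted p = 7.13e-08). In DU145-pc3.1 cells it rose by 0.32 ± 0.09, or 1.25-fold (adjusted p = 0.0100, edgeR). The test of the difference between both responses, the interaction of Esrrb with DY131, gave 0.78 ± 0.13 (adjusted p = 2.60e-04, edgeR). Without DY131, Esrrb left CDKN1A at -0.24 ± 0.09, which did not pass the threshold (adjusted p = 0.175, edgeR).

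The response in DU145-pc3.1 cells hung on single libraries, while the response in DU145-Esrrb cells did not. Without replicate 1 of the DY131-treated DU145-pc3.1 cells it was 0.17 (adjusted p = 0.0909, edgeR), and without replicate 2 it was 0.46 (adjusted p = 1.10e-05, edgeR). Leaving out either untreated DU145-pc3.1 library gave adjusted p of 0.0521 and 0.0599 (edgeR). In DU145-Esrrb cells the change lay between 1.03 and 1.16 whichever library was left out, and the interaction lay between 0.64 and 0.92, all past the threshold. The fall of CDKN1A with Esrrb alone passed it without either replicate of the DY131-treated DU145-pc3.1 cells (-0.24, adjusted p = 0.0154 and 0.0147, edgeR) and in a fit of only the 4 untreated libraries (adjusted p = 0.0329, edgeR).

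The other Cip/Kip genes did not rise with DY131 in either pool. CDKN1B, which holds CDK2 inactive in resting cells, was at 76.5 and 71.6 cpm in untreated DU145-pc3.1, 73.6 and 68.5 cpm in untreated DU145-Esrrb, 48.2 and 62.3 cpm in DY131-treated DU145-pc3.1 and 65.1 and 69.2 cpm in DY131-treated DU145-Esrrb cells. Only the DY131-treated DU145-pc3.1 libraries stood apart, below the other 6. CDKN1B fell by 0.42 on the log2 scale (SE 0.10, adjusted p = 0.00291, edgeR) with DY131 in DU145-pc3.1 cells and was at -0.08 ± 0.10 in DU145-Esrrb cells (adjusted p = 0.489, edgeR). Without replicate 1 of the DY131-treated DU145-pc3.1 cells, the first of these was -0.24 and still passed (adjusted p = 0.0196, edgeR). The interaction was 0.34 ± 0.14 and did not pass (adjusted p = 0.0669, edgeR), but passed with no filter on low counts (0.34, adjusted p = 0.0161, edgeR) and without replicate 2 of the DY131-treated DU145-pc3.1 cells (0.54, adjusted p = 2.27e-04, edgeR).

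CDKN1C, an imprinted inhibitor of CDKs, was the weakest of the 9 tested genes, with 10 to 49 reads per library. It was at 4.68 and 3.17 cpm in untreated DU145-pc3.1, 3.57 and 4.32 cpm in untreated DU145-Esrrb, 2.15 and 1.79 cpm in DY131-treated DU145-pc3.1 and 1.30 and 2.49 cpm in DY131-treated DU145-Esrrb cells. All 4 treated libraries lay below all 4 untreated ones. CDKN1C fell by 0.98 (SE 0.31, adjusted p = 0.0213, edgeR) in DU145-pc3.1 and by 1.02 (SE 0.33, adjusted p = 0.0142, edgeR) in DU145-Esrrb cells on the log2 scale, with an interaction of -0.04 ± 0.46 (adjusted p = 0.956, edgeR). DESeq2 passed neither change (adjusted p = 0.113 and 0.0653). The call in DU145-pc3.1 cells was lost without untreated replicate 1 (-0.68, adjusted p = 0.212) or treated replicate 2 (-0.85, adjusted p = 0.0545), and that in DU145-Esrrb cells without untreated replicate 2 (-0.89, adjusted p = 0.0811) or treated library a (-0.66, adjusted p = 0.158). Without treated library b it was -1.59.

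**Figure D1:**
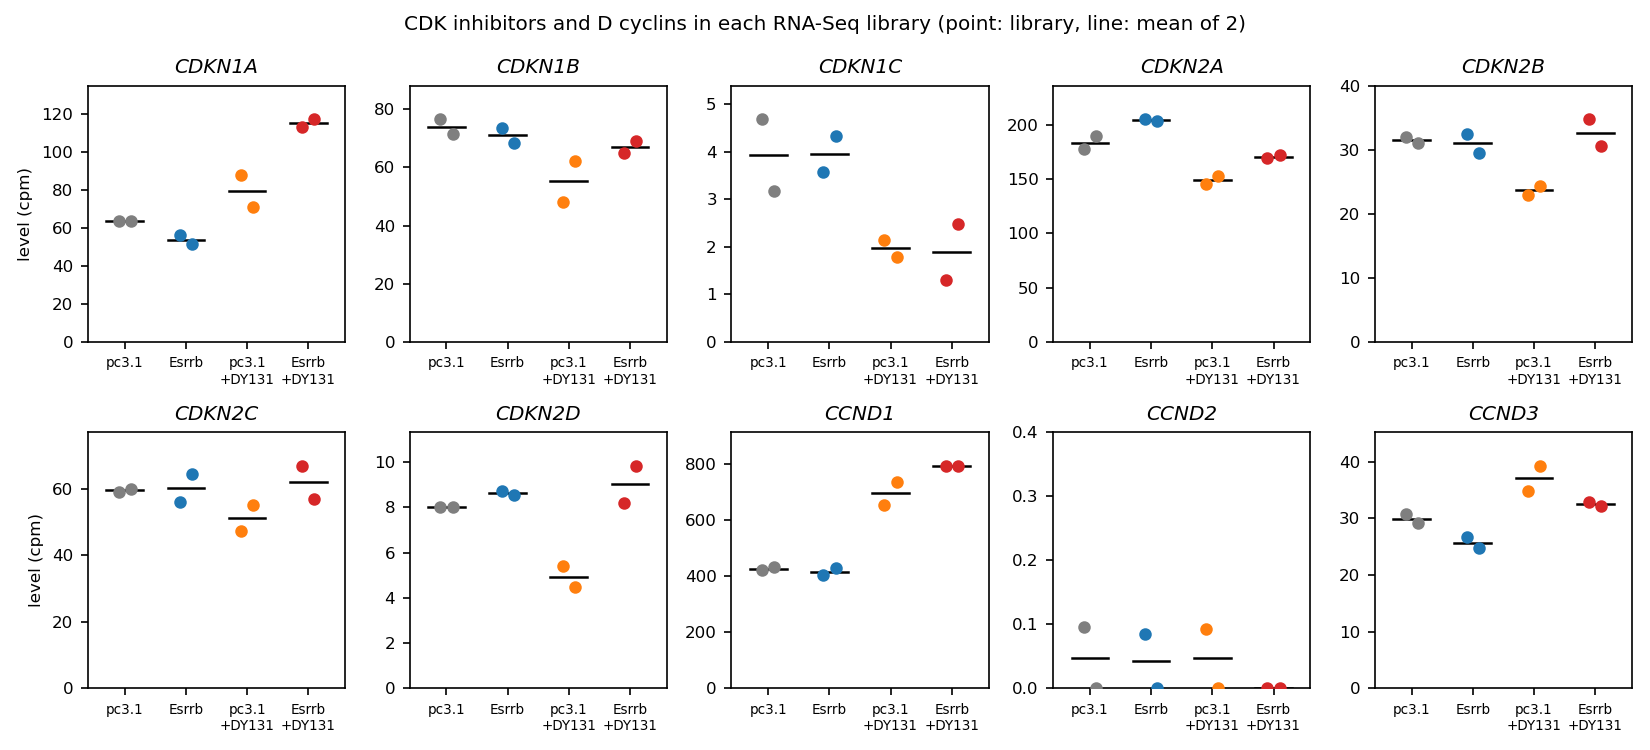
Level of each CDK inhibitor and D cyclin (cpm, vertical axis starting at 0 in each panel) in the 8 libraries, by group on the horizontal axis. Points are libraries and lines are means of 2. CDKN1A and CCND1 are highest in DY131-treated DU145-Esrrb cells, CDKN1C is lower in all 4 treated libraries, and CDKN2B and CDKN2D are lowest in DY131-treated DU145-pc3.1 cells. CCND2 has at most 1 read in any library.

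Of the 4 INK4 genes, 3 fell with DY131 in DU145-pc3.1 cells and 1, CDKN2A, fell in DU145-Esrrb cells. CDKN2A, which encodes p16INK4a and, in another reading frame, ARF, was at 177 and 189 cpm in untreated DU145-pc3.1, 205 and 204 cpm in untreated DU145-Esrrb, 146 and 153 cpm in DY131-treated DU145-pc3.1 and 169 and 172 cpm in DY131-treated DU145-Esrrb cells. The groups did not overlap. CDKN2A fell by 0.30 on the log2 scale (SE 0.06, adjusted p = 9.51e-04, edgeR) in DU145-pc3.1 and by 0.26 (SE 0.06, adjusted p = 0.00120, edgeR) in DU145-Esrrb cells, with an interaction of 0.04 ± 0.08 (adjusted p = 0.775, edgeR). With a correction for transcript length the change in DU145-Esrrb cells was -0.06 and did not pass (adjusted p = 0.365, edgeR). The counts do not separate the transcripts of p16INK4a and ARF.

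CDKN2B, which encodes p15INK4b, was at 32.1 and 31.1 cpm in untreated DU145-pc3.1, 32.5 and 29.6 cpm in untreated DU145-Esrrb, 23.0 and 24.4 cpm in DY131-treated DU145-pc3.1 and 34.8 and 30.6 cpm in DY131-treated DU145-Esrrb cells. CDKN2D, which encodes p19INK4d, was at 8.02 and 8.01 cpm, 8.74 and 8.55 cpm, 5.42 and 4.46 cpm, and 8.21 and 9.83 cpm in the same order. For both genes the DY131-treated DU145-pc3.1 libraries lay below the other 6, and the treated DU145-Esrrb libraries overlapped the untreated ones.

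In DU145-pc3.1 cells CDKN2B fell by 0.41 on the log2 scale (SE 0.10, adjusted p = 0.00383, edgeR) and CDKN2D by 0.69 (SE 0.18, adjusted p = 0.00678, edgeR; DESeq2 adjusted p = 0.0617). In DU145-Esrrb cells they were at 0.07 ± 0.10 (adjusted p = 0.554, edgeR) and 0.07 ± 0.17 (adjusted p = 0.745, edgeR). Their interactions were 0.48 ± 0.14 (adjusted p = 0.0139, edgeR) and 0.76 ± 0.24 (adjusted p = 0.0258, edgeR). DESeq2 passed neither interaction (adjusted p = 0.0895 and 0.176). That of CDKN2B was also lost without untreated DU145-pc3.1 replicate 1 (0.45), untreated DU145-Esrrb replicate 2 (0.41) or treated DU145-Esrrb library a (0.39). That of CDKN2D was lost without any 1 of the 4 untreated libraries, without treated DU145-pc3.1 replicate 2 (0.63) or without treated DU145-Esrrb library b (0.61).

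CDKN2C, which encodes p18INK4c, was at 59.0 and 60.0 cpm in untreated DU145-pc3.1, 56.0 and 64.6 cpm in untreated DU145-Esrrb, 47.4 and 55.2 cpm in DY131-treated DU145-pc3.1 and 66.9 and 57.0 cpm in DY131-treated DU145-Esrrb cells. It was at -0.22 ± 0.10 with DY131 in DU145-pc3.1 cells (adjusted p = 0.0932, edgeR) and at 0.04 ± 0.10 in DU145-Esrrb cells (adjusted p = 0.766, edgeR). Neither passed, although in DU145-pc3.1 cells the treated libraries lay below the untreated ones and without treated replicate 2 the change was -0.33 (adjusted p = 0.00712, edgeR). The interaction was 0.25 ± 0.14 (adjusted p = 0.172, edgeR), and 0.36 without that library (adjusted p = 0.0200, edgeR).

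CDKN2A and CDKN2B lie side by side on chromosome 9, at 21967753 to 21995301 and 22002903 to 22009363 (GRCh38, minus strand), and CDKN2B-AS1 overlaps both on the opposite strand. CDKN2B-AS1 had 4 to 20 reads per library, far fewer than the 246 to 2415 of the coding genes. Whether the authors' counting used strand is not stated, so reads of overlapping genes on opposite strands cannot be told apart. CDKN2A shares 2.65% of its 50-base windows with CDKN2B. Of the neighbours, MTAP, a methionine salvage enzyme, rose with DY131 by 0.47 ± 0.07 in DU145-pc3.1 cells (adjusted p = 5.60e-05, edgeR) and by 0.72 ± 0.06 in DU145-Esrrb cells (adjusted p = 2.18e-07, edgeR). It was 1 of the 3 tested genes of the neighbour list to pass in each pool. Of all genes, 37.4% passed in DU145-pc3.1 and 58.7% in DU145-Esrrb cells.

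Both detected D cyclins rose with DY131 in both pools. CCND1, the main D cyclin of epithelial cells, was at 420 and 430 cpm in untreated DU145-pc3.1, 403 and 429 cpm in untreated DU145-Esrrb, 653 and 735 cpm in DY131-treated DU145-pc3.1 and 792 and 790 cpm in DY131-treated DU145-Esrrb cells. All 4 treated libraries lay above all 4 untreated ones, and those of DU145-Esrrb cells above those of DU145-pc3.1 cells. CCND1 rose by 0.71 ± 0.06, or 1.63-fold, in DU145-pc3.1 cells (adjusted p = 1.03e-06, edgeR) and by 0.93 ± 0.06, or 1.90-fold, in DU145-Esrrb cells (adjusted p = 1.27e-08, edgeR). The interaction was 0.22 ± 0.09 and did not pass (adjusted p = 0.0668, edgeR), but passed with no filter (0.22, adjusted p = 0.0371, edgeR) and without treated DU145-pc3.1 replicate 2 (0.31, adjusted p = 5.68e-04, edgeR). CCND1 shares 9.44% of its windows with LTO1, which overlaps it on the opposite strand.

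CCND3 was at 30.7 and 29.1 cpm in untreated DU145-pc3.1, 26.7 and 24.7 cpm in untreated DU145-Esrrb, 34.9 and 39.3 cpm in DY131-treated DU145-pc3.1 and 32.9 and 32.1 cpm in DY131-treated DU145-Esrrb cells. Treated libraries lay above untreated ones in both pools. CCND3 rose by 0.31 ± 0.09 in DU145-pc3.1 cells (adjusted p = 0.0151, edgeR) and by 0.34 ± 0.10 in DU145-Esrrb cells (adjusted p = 0.00784, edgeR), with an interaction of 0.03 ± 0.13 (adjusted p = 0.895, edgeR). DESeq2 did not pass it in DU145-pc3.1 cells (adjusted p = 0.0899). It was lost there without untreated replicate 2 (0.27) or treated replicate 2 (0.22), and in DU145-Esrrb cells without untreated replicate 2 (0.28) or treated library a (0.32), or with a correction for exon junctions described further on (0.20, adjusted p = 0.0847, edgeR).

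Counted over the genes, DY131 in DU145-pc3.1 cells passed the threshold of an adjusted p under 0.05 (edgeR) for 8 of 9 tested genes, against 37.4% of all genes tested, with 3 higher (18.9% of all genes were higher) and 5 lower (18.5%). Their median log2 fold change was -0.30, and that of all genes -0.0026. In DU145-Esrrb cells 5 of 9 passed, close to the 58.7% of all genes, with 3 higher (29.2% of all genes were higher) and 2 lower (29.5%) and a median of 0.07 against -0.0045 over all genes. CDKN1A and CDKN1C also reached an absolute log2 fold change of 1 there, as 12% of all genes did, with 2.98% of all genes higher by that size and 9.04% lower. In DU145-pc3.1 cells none of the 9 reached both thresholds (0 of 9, edgeR, against 4.19% of all genes), while all 9 had an unadjusted p under 0.05.

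Esrrb without DY131 passed for 0 of 9 genes, against 4.18% of all genes (edgeR; also 0 with edgeR's exact test and with DESeq2). At an unadjusted p under 0.05 it was 3 of 9, with CDKN1A and CCND3 lower and CDKN2A higher. CDKN1A and CDKN2A passed without either treated DU145-pc3.1 library. The interaction passed for 3 of 9 genes, close to the 33.7% of all genes, all 3 higher, against 16.1% of all genes, and none lower (edgeR, 0 of 9 also at an unadjusted p under 0.05). DESeq2 passed 1 of 9, which was CDKN1A. Libraries that did not overlap were common over all genes. With DY131 they were higher for 32% and lower for 33.6% of genes in DU145-pc3.1 cells, and for 40.7% and 41.6% in DU145-Esrrb cells. The comparisons share libraries, so their values are given side by side and not as separate evidence.

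**Figure D2:**
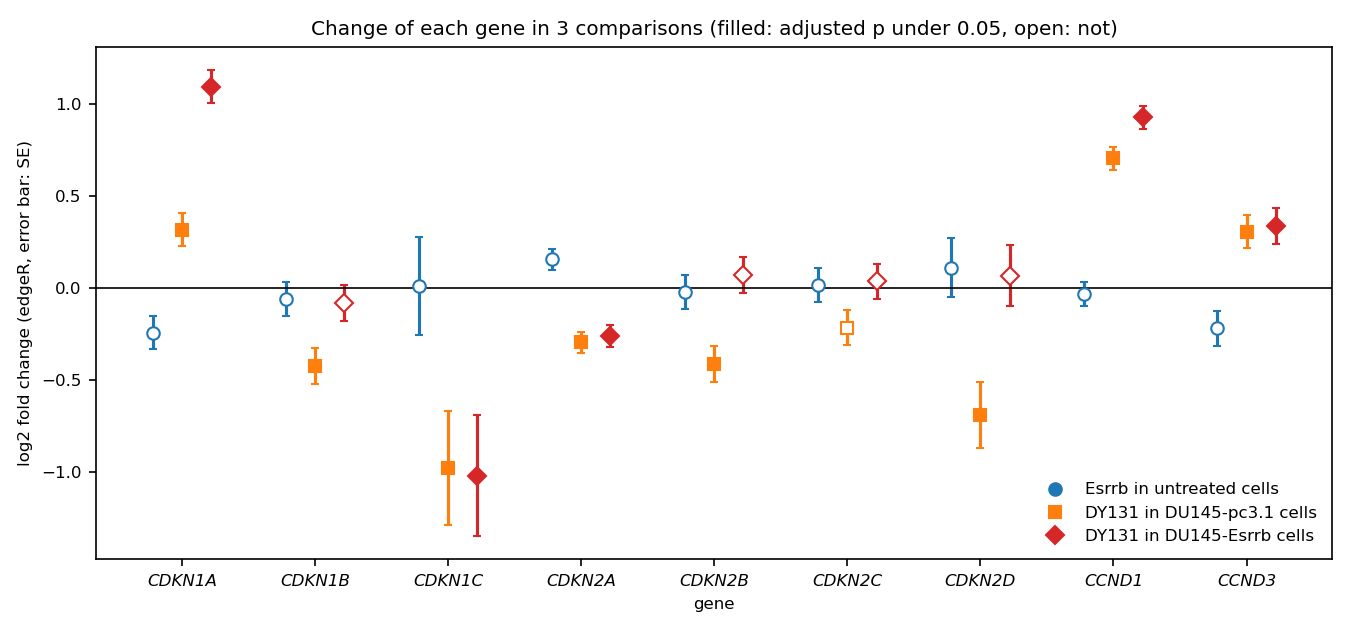
Log2 fold change (vertical axis, bars are SE) of the 9 tested genes (horizontal axis) with Esrrb in untreated cells and with DY131 in either pool. Filled symbols have an adjusted p under 0.05. CDKN1A and CCND1 have the largest increases with DY131 in DU145-Esrrb cells, and 5 inhibitors are lower with DY131 in DU145-pc3.1 cells.

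Between the pools under DY131, 7 of 9 genes were higher in DU145-Esrrb than in DU145-pc3.1 cells, against 25.1% of all genes higher and 50.4% changed either way (edgeR), and 0 of 9 reached an absolute log2 fold change of 1 as well (8.21% of all genes, edgeR). These were CDKN1A (0.54 ± 0.09), CDKN1B (0.28 ± 0.10), all 4 INK4 genes (0.19 to 0.87) and CCND1 (0.19 ± 0.06). When the fit held just the 4 libraries compared, 3 of 9 were called. Without replicate 1 of the DY131-treated DU145-pc3.1 cells, those of CDKN1B (0.10), CDKN2A (0.14), CDKN2C (0.15) and CCND1 (0.09) were lost and CCND3 was lower in DU145-Esrrb cells (-0.29, adjusted p = 0.0195, edgeR). Leaving out a treated DU145-Esrrb library also ended the calls of CDKN1B, CDKN2A and CCND1, and for library a that of CDKN2C, which was also lost without untreated DU145-pc3.1 replicate 1 (0.26). Against untreated DU145-pc3.1 cells, DY131-treated DU145-Esrrb cells passed for 3 of 9 genes (59.3% of all genes), with CDKN1A at 0.86 ± 0.09, CCND1 at 0.90 ± 0.06 and CDKN1C at -1.01 ± 0.33, the last lost without untreated DU145-pc3.1 replicate 1 (-0.72) or treated DU145-Esrrb library a (-0.65). CDKN1C was the 1 gene of 9 that also reached an absolute log2 fold change of 1, as 12.8% of all genes did.

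The change with DY131 in DU145-Esrrb cells moved with the share of a transcript that lies across exon junctions. This share was measured as the percent of 50-base windows, the length of the reads, that cross a junction. Genes were split into deciles of this share. Under DY131, DU145-Esrrb cells had a median log2 fold change of 0.27 in the lowest decile and of -0.56 in the highest. In DU145-pc3.1 cells those medians were -0.03 and -0.0033. The 9 tested genes have shares of 1.27% to 9.40% and fall in deciles whose medians were 0.27, 0.25 and 0.12. CDKN1A rose more than 96.8% and CCND1 more than 93.8% of the genes of their decile, while CDKN1B, CDKN1C, CDKN2A, CDKN2B, CDKN2C and CDKN2D were below their decile's median.

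After a correction for this share, fitted per library, CDKN1A was at 0.87 ± 0.09 with DY131 in DU145-Esrrb cells (adjusted p = 1.29e-06, edgeR) and its interaction at 0.53 ± 0.13 (adjusted p = 0.00770, edgeR). CCND1 was at 0.70 ± 0.06 (adjusted p = 2.24e-07, edgeR), with an interaction of -0.02 ± 0.09 (adjusted p = 0.880, edgeR). CDKN1B fell by 0.33 (adjusted p = 0.00825, edgeR) and CDKN2A by 0.42 (adjusted p = 2.02e-05, edgeR) on the log2 scale. CDKN2B, CDKN2C and CDKN2D were then at -0.21, -0.19 and -0.18 (adjusted p = 0.0740, 0.103 and 0.371, edgeR). The interactions of CDKN2B (0.16, adjusted p = 0.453, edgeR) and CDKN2D (0.49, adjusted p = 0.165, edgeR) no longer passed. CDKN1A was then the 1 gene of 9 with an interaction past the threshold, and of the 7 differences between the treated pools only those of CDKN1A (0.28, adjusted p = 0.0185) and CDKN2D (0.59, adjusted p = 0.0186) remained, while CCND3 was lower in DU145-Esrrb cells (-0.33, adjusted p = 0.0109).

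**Figure D3:**
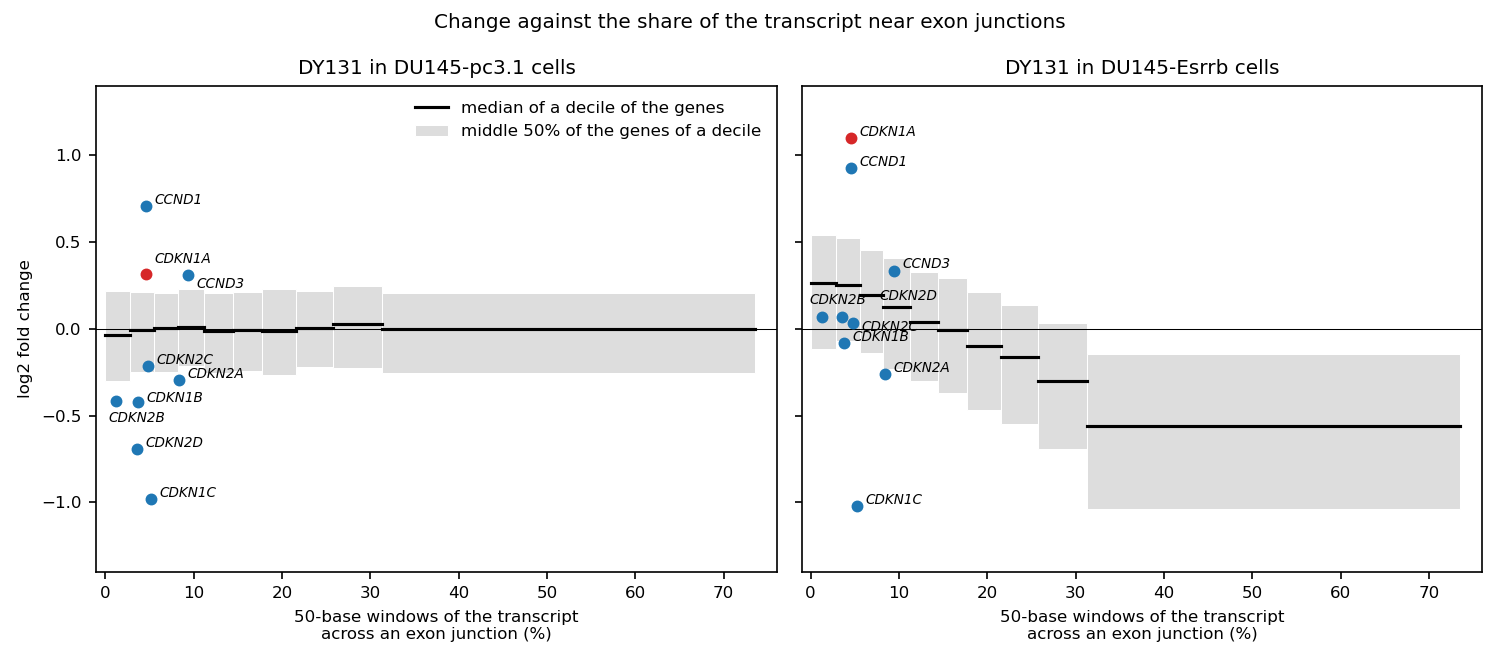
Log2 fold change with DY131 (vertical axis) against the percent of 50-base windows of a transcript across an exon junction (horizontal axis), in DU145-pc3.1 (left) and DU145-Esrrb cells (right). Black lines are medians and grey boxes the middle 50% of the genes of each decile, drawn over the range of that decile. Points are the 9 tested genes, with CDKN1A in red. The medians run from 0.27 to -0.56 on the right and stay near 0 on the left, and all 9 genes lie at shares of 9.40% or less.

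Measured within each library against each other gene, CDKN1A gained on the other CDK inhibitors under DY131 in both pools and on CCND3 in DU145-Esrrb cells. The log2 cpm of CDKN1A minus that of CDKN1B was -0.26 and -0.18 in untreated DU145-pc3.1, -0.39 and -0.42 in untreated DU145-Esrrb, 0.86 and 0.18 in DY131-treated DU145-pc3.1 and 0.79 and 0.76 in DY131-treated DU145-Esrrb libraries. CDKN1B thus had more reads than CDKN1A in all 4 untreated libraries and fewer in all 4 treated ones. Against CDKN2A the difference went from -1.47 and -1.58 to -0.74 and -1.11 in DU145-pc3.1 cells and from -1.87 and -1.99 to -0.58 and -0.55 in DU145-Esrrb cells, so CDKN2A stayed above CDKN1A in reads throughout.

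In DU145-Esrrb cells the ratio of CDKN1A rose against CDKN1B by 1.18 ± 0.16 (SE), against CDKN1C by 2.14 ± 0.30, against CDKN2A by 1.36 ± 0.16 and against CDKN2B, CDKN2C and CDKN2D by 1.02 to 1.06 on the log2 scale (limma, adjusted p of 3.11e-06 or less). Against CCND3 it rose by 0.76 ± 0.17 (adjusted p = 6.39e-06, limma). Against CCND1 it was at 0.17 ± 0.17, with a 95% interval of -0.16 to 0.50 (adjusted p = 0.328, limma). Without either treated DU145-pc3.1 library it was also 0.17, but with an SE of 0.08. The result for CCND1 thus depends on libraries outside the comparison and does not show that there was no change. CDKN1A thus passed against 7 of 8 genes, but also against 92.4% of all genes, and every ratio holds the same CDKN1A counts. The spread was pooled by limma over all these ratios as if they were separate. All p-values and intervals of ratios given here therefore overstate the certainty that 8 libraries allow.

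In DU145-pc3.1 cells CDKN1A also passed against 7 of 8 genes, where 37.1% of all genes did (limma). Its ratio rose by 0.53 to 1.22 against the 6 other inhibitors (35.2% of all genes) and fell by 0.40 against CCND1 (1.92% of all genes), with an adjusted p of 0.0487 (limma), a call that held without treated DU145-pc3.1 replicate 1 but was lost when any other library was left out (-0.42 to -0.16). Against CCND3 it was at 0.0039, with a 95% interval of -0.32 to 0.33. Leaving out either untreated DU145-pc3.1 library left 4 of 8 calls.

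Esrrb in untreated cells changed the ratio to 0 of 8 genes past the threshold (limma, 3.49% of all genes, and also 0 with limma's voom weights), with 1 of 8 at an unadjusted p under 0.05. Between the treated pools 2 of 8 ratios passed (62.9% of all genes, limma), to CCND3 (0.73, adjusted p = 3.55e-05) and CDKN2A (0.35, adjusted p = 0.0441). The second held in voom and with another prior count but was lost when any 1 library other than treated DU145-pc3.1 replicate 1 was left out (0.17 to 0.37). Against untreated DU145-pc3.1 cells, DY131-treated DU145-Esrrb cells passed for 7 of 8 (84% of all genes, limma), all but CCND1 (-0.04, adjusted p = 0.808). The interaction passed for 5 of 8 ratios and 68.9% of all genes, namely those to CDKN1C, CDKN2A, CDKN2C, CCND1 and CCND3. After the junction correction it passed for the ratios to CDKN2A and CCND3 only. Those to CDKN1C, CDKN2C and CCND1 were also lost when 1 of several libraries was left out, and leaving out untreated DU145-pc3.1 replicate 2 or untreated DU145-Esrrb replicate 2 left 2 of 8. Without either treated DU145-pc3.1 library, Esrrb in untreated cells passed for 3 of 8 ratios, to CDKN2A (-0.40), CDKN2C (-0.26) and CCND1 (-0.21).

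**Figure D4:**
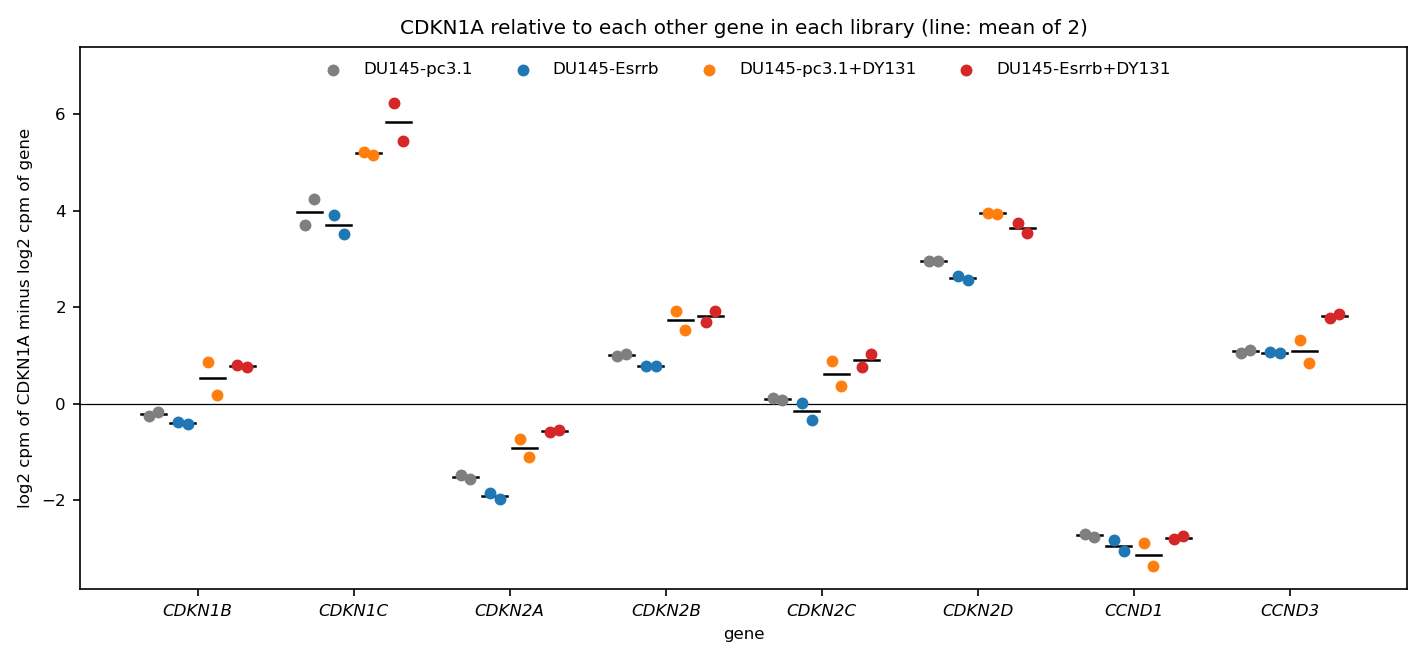
Log2 cpm of CDKN1A minus log2 cpm of each other tested gene (vertical axis) in each library, by gene (horizontal axis) and group (colours). Lines are means of 2. CDKN1A lies above CDKN1B and CDKN2C in all 4 treated libraries, below CDKN2A and CCND1 in all 8, and between -3.37 and -2.72 against CCND1 over the 8 libraries.

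Per transcript length, CDKN2A and CCND1 were the most abundant of the 10 genes. In cpm per kb of transcript, untreated DU145-pc3.1 cells had 150 ± 6.86 of CDKN2A, 98.7 ± 1.76 of CCND1, 29.1 ± 0.141 of CDKN1A, 28.5 ± 0.365 of CDKN2C, 27.9 ± 1.32 of CDKN1B, 14.0 ± 0.525 of CCND3, 8.07 ± 0.177 of CDKN2B, 5.64 ± 0.0016 of CDKN2D and 2.03 ± 0.552 of CDKN1C (mean ± SD, n = 2), with CCND2 last. CDKN2C and CDKN1B overlapped in their libraries and do not differ beyond their spread. In DY131-treated DU145-Esrrb cells CCND1 (184 ± 0.314) was above CDKN2A (140 ± 1.65), and CDKN1A (52.7 ± 1.37) was above CDKN2C (29.7 ± 3.36) and CDKN1B (25.3 ± 1.10), with no overlap between CDKN1A and either. With the longest transcript of CDKN2C its level in untreated DU145-pc3.1 cells was 20.5, below that of CDKN1B, so the order of these genes depends on the transcript taken.

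More than 50% of the partners of these genes in the CDK4/6-RB-E2F pathway rose with DY131. Of 16 such genes, 9 were higher and 1 lower with DY131 in each pool, with medians of 0.23 in DU145-pc3.1 and 0.39 in DU145-Esrrb cells. Over all genes, 18.9% were higher and 18.5% lower in DU145-pc3.1 and 29.2% higher and 29.5% lower in DU145-Esrrb cells. CDK6, the kinase partner of D cyclins, was at 39.1 to 41.1 cpm in untreated and 69.1 to 77.7 cpm in treated libraries and rose by 0.92 ± 0.07 in DU145-Esrrb cells (adjusted p = 7.30e-08, edgeR). E2F3, an activating E2F factor, rose by 0.78 ± 0.08 and CCNE2, a cyclin of CDK2, by 0.76 ± 0.11 there. RBL2, the RB relative p130, fell by 0.40 on the log2 scale (SE 0.06, adjusted p = 8.01e-05, edgeR). CDK4 was at -0.07 ± 0.06 (adjusted p = 0.331, edgeR). RB1 was at 0.0020 ± 0.07 (adjusted p = 0.982, edgeR) but at 0.23 after the junction correction (adjusted p = 0.0116, edgeR). With DY131 in DU145-pc3.1 cells CDK6 rose by 0.81 ± 0.07, E2F3 by 0.35 ± 0.08 and CCNE2 by 0.84 ± 0.11. RBL2 fell by 0.35 on the log2 scale (SE 0.06) in that pool, and CDK4 and RB1 were at 0.18 ± 0.06 and 0.24 ± 0.07.

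Of 15 transcription factors known to act on CDKN1A, 10 were higher and 3 lower with DY131 in DU145-Esrrb cells (7 and 2 after the junction correction), where 29.2% of all genes were higher and 29.5% lower. In DU145-pc3.1 cells 2 were higher and 3 lower, near the 18.9% and 18.5% of all genes. The medians of the list were 0.38 and -0.05. FOXO3 was at 21.4 to 26.0 cpm in 6 libraries and at 49.5 and 45.7 cpm under DY131 in DU145-Esrrb cells, a rise of 1.04 ± 0.10 (adjusted p = 2.75e-07, edgeR) with an interaction of 0.89 ± 0.14 (adjusted p = 2.24e-04, edgeR). KLF6 rose by 0.82 ± 0.06 and KLF4 by 0.82 ± 0.14 there. With DY131 in DU145-pc3.1 cells KLF6 rose by 0.55 ± 0.06, and KLF4 was at -0.07 ± 0.13. Against untreated DU145-pc3.1 cells, KLF4 was at 0.06 ± 0.13 in DY131-treated DU145-Esrrb cells (adjusted p = 0.708, edgeR). KLF4 fell by 0.76 on the log2 scale (SE 0.14) with Esrrb alone (adjusted p = 0.00445, edgeR), a call lost without untreated DU145-pc3.1 replicate 1 (-0.65) or untreated DU145-Esrrb replicate 1 (-0.73). EGR1, an immediate early gene, was at 227 to 259 cpm in untreated and 37.2 to 73.8 cpm in treated libraries and fell by 2.59 on the log2 scale (SE 0.18, adjusted p = 1.82e-08, edgeR).

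Among 17 cell proliferation genes, 12 were higher with DY131 in DU145-pc3.1 cells, against 18.9% of all genes. In DU145-Esrrb cells 5 were higher and 3 lower, near the 29.2% of all genes higher and under the 29.5% lower. The medians were 0.29 and 0.04. The junction correction changed the count in DU145-Esrrb cells to 10 higher and 2 lower. MKI67, the Ki-67 antigen, rose by 0.73 ± 0.06 in DU145-pc3.1 and by 0.72 ± 0.06 in DU145-Esrrb cells, AURKA, a mitotic kinase, by 0.22 ± 0.07 and 0.43 ± 0.07, and the replication licensing gene MCM3 by 0.40 ± 0.06 in both. CCNA2, a cyclin of S phase, rose by 0.30 ± 0.08 in DU145-pc3.1 cells and fell by 0.35 (SE 0.08) on the log2 scale in DU145-Esrrb cells, with an interaction of -0.65 ± 0.12 (adjusted p = 5.72e-04, edgeR). The rise of CCNA2 was lost without treated DU145-pc3.1 replicate 2 (0.17, adjusted p = 0.0591, edgeR) or untreated replicate 1 (0.27, adjusted p = 0.0705, edgeR), and that of AURKA in DU145-pc3.1 cells without untreated replicate 1 (0.13, adjusted p = 0.227, edgeR). BUB1, a spindle checkpoint kinase with 33.9% of its windows across junctions, was at 0.29 ± 0.06 in DU145-pc3.1 cells and at -0.37 ± 0.07 in DU145-Esrrb cells, but at 0.09 there after the junction correction. MCM7 fell by 0.31 (SE 0.05) in DU145-Esrrb cells and by 0.15 after the correction, both on the log2 scale.

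The levels most like that of CDKN1A over the 8 libraries, by Pearson's r of the log2 cpm, were those of MXD1 (0.994), C1orf63 (0.994), RIC8B (0.992), ZC3H12C (0.989) and NAA40 (0.989). MXD1, a MAX partner that counters MYC, was at 8.92 to 17.2 cpm in the other 6 libraries and at 24.0 and 24.8 cpm under DY131 in DU145-Esrrb cells, and rose there by 1.37 ± 0.16 (adjusted p = 2.41e-06, edgeR). Of the CDK inhibitors and D cyclins, CCND1 had an r of 0.880 with CDKN1A, CCND3 of 0.578 and the 6 other inhibitors of -0.75 to 0.04. These points share their 4 groups, so r describes the pattern over the groups.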

How the data were processed

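Total RNA of DU145 pools was made into stranded mRNA libraries and sequenced in single reads of 50 bases in 1 lane. The authors aligned the reads to hg18 with TopHat2 and deposited raw read counts per gene, made with MULTICOM-MAP. How strand and multiply mapped reads were handled is not given in the sources used here. Counts of 23391 genes in 8 libraries were read, and 0 columns of per-sample values were left unused. Of the genes, 13856 reached 1 cpm in 2 libraries or more and were tested with edgeR 4.0.16 (R 4.3.3) by quasi-likelihood, with TMM scaling, 4 groups and Benjamini-Hochberg adjustment. Calls had an adjusted p under 0.05, and a second rule also asked for a change of 1 or more on the log2 scale in either direction. CDKN1A was compared with each gene within a library as log2 cpm (prior count 2) with limma 3.58.1. DESeq2 1.42.0, edgeR's exact test, other scalings and filters, a replicate block, corrections for junction share and length, and leaving out each library were alternatives. The scripts were tested on simulated data.

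The members and gene lists were chosen with earlier results of these data known. Besides the 10 genes, those named were up to 3 genes of each list in each direction with the largest changes past the threshold and no overlap of libraries under DY131 in DU145-Esrrb cells, RB1, CDK4 and CDK6, the 5 genes most like CDKN1A over the libraries, ESRRB and the cell type markers. CDKN2B-AS1 was chosen with its values known. Positions are from GENCODE 29 (GRCh38), and 22754 of the 23391 genes were matched to it. Replicate numbers did not pair the libraries, with correlations of deviations from -0.07 to 0.09. The replicates of a group are labelled as biological. The p-values rest on a spread between replicates that the 4 groups share and that is moderated across genes, not on the groups compared alone. Floors cover counting error only. The 95% intervals of ratios come from a spread between libraries that limma pooled over the ratios to all genes, and they are too narrow for 8 libraries. A few genes, and the gene lists that rest on them, are not reported here.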

Additional observations from a re-analysis of the deposited data

Results flagged for a closer look

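The response to DY131 differed between the pools, by the interaction test of edgeR's quasi-likelihood fit, for CDKN1A (0.78 on the log2 scale, SE 0.13), CDKN2B (0.48, SE 0.14) and CDKN2D (0.76, SE 0.24). These were 3 of the 9 tested genes, close to the 33.7% of all genes that passed. DY131 raised CDKN1A more in DU145-Esrrb than in DU145-pc3.1 cells, while CDKN2B and CDKN2D fell in DU145-pc3.1 cells and did not pass the test in DU145-Esrrb cells. The change with DY131 in DU145-Esrrb cells moved with the share of a transcript across exon junctions, and its part in these differences was tested by a correction only. After it, the value of CDKN1A was 0.53 and still passed, and those of CDKN2B (0.16) and CDKN2D (0.49) did not. DESeq2 passed the interaction of CDKN1A but not those of CDKN2B and CDKN2D. The interactions of CDKN2B and CDKN2D were also lost when any of several single libraries was left out.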

How the results depend on the processing

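The number of the 9 tested genes called with Esrrb in untreated cells was 0, and 1 with only the libraries compared (0 to 2 leaving out 1 library). With DY131 in DU145-pc3.1 cells it was 8 and 5 by DESeq2. With DY131 in DU145-Esrrb cells it was 5 (3 to 5 leaving out 1 library). Between the treated pools it was 7, and 3 both with only the libraries compared and with the junction correction (3 to 7). For Esrrb and DY131 together it was 3, and 6 with the junction correction. For the interaction it was 3, and 1 by DESeq2, 5 with no filter and 1 with the junction correction (1 to 5). Past both thresholds, DY131 in DU145-pc3.1 cells gave 0, and 1 by library size alone (0 to 1), DY131 in DU145-Esrrb cells gave 2, and 1 by DESeq2, by the junction correction or by the length correction (1 to 2), the treated pools gave 0 (0 to 1), and both together gave 1, and 0 by DESeq2 or the length correction (0 to 1). The ratios of CDKN1A that passed numbered 0 (0 to 3) for Esrrb alone, 7 (4 to 6) for DY131 in DU145-pc3.1 cells, 2 between the treated pools (1 with the junction correction, 1 to 5 leaving out 1 library) and 5 for the interaction (2 with the junction correction, 2 to 7). Signs turned under the junction correction for BUB1 with DY131 in DU145-Esrrb cells (0.0933), for CCND1 (-0.0622) and KLF6 (-0.21) between the treated pools, and for CDKN2B (-0.26), RB1 (0.23) and BUB1 (0.26) with both together. That of EGR1 between the treated pools turned without replicate 1 of DY131-treated DU145-pc3.1 cells (range leaving out 1 library -0.927 to 0.0481). The causes were not tested. CDKN2A with DY131 in DU145-Esrrb cells was at -0.06 with the length correction (adjusted p = 0.365, edgeR).

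Over all genes, Esrrb alone gave 579 calls, against 317 by DESeq2, 948 with no filter, 1209 with only the libraries compared, 370 with the 6 numbered libraries and 140 to 1523 leaving out 1 library. DY131 in DU145-pc3.1 cells gave 5185, and 3418 without untreated replicate 1. The interaction gave 4674, against 2897 by DESeq2 and 3028 with the junction correction. With the replicate block, over the 6 numbered libraries, 0 of 9 genes passed for Esrrb alone and 8 of 9 for DY131 in DU145-pc3.1 cells, as in the same libraries without it, and 397 and 4901 of all genes against 370 and 4762. No paired analysis was possible for comparisons with DY131-treated DU145-Esrrb cells because their columns carry no replicate number. The interaction could not be run with the exact test or with only the libraries compared. With 2 libraries a group and 10 to 49 reads of CDKN1C, small changes of such genes were not detectable at this depth.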
